A study of Mus musculus with 6 samples.

Results

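Expression of the proteasome genes was compared in the mucosal neck zone of the stomach corpus between mice that lack claudin 18 and wild-type mice. They were chosen by name, as the rows of the deposited table of normalized counts whose symbol has the form Psma to Psmg followed by a number, leaving out symbols that mark pseudogenes with "-ps". The rule took 50 of the 38720 rows of the table. One of these, Psmc3ip, matches by its letters alone and encodes a factor of meiotic recombination, so 49 rows are proteasome genes. Of the 49, 47 reached a value of 10 or more in at least 3 of the 6 libraries and were tested among 17432 genes. The remaining 2 were Psma8, a core subunit of the testis with values of 0 to 8.87, and Psmb11, a core subunit of the thymus with values of 0 to 10.7.

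The proteasome is the protease complex that breaks down proteins tagged with ubiquitin in the cytosol and nucleus of all cells. Its core particle is a barrel of stacked rings, in which the alpha subunits form the gate and the beta subunits hold the cutting sites. The cap particle binds tagged proteins, removes the ubiquitin and feeds the unfolded chain into the core. After interferon, newly built cores take up the subunits Psmb8, Psmb9 and Psmb10 in place of Psmb5, Psmb6 and Psmb7, and this immunoproteasome cuts peptides for display on class I molecules.

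Claudin 18 seals the tight junctions of gastric epithelial cells. The mutant group held 3 libraries of genotype CLDN18-/- and the other group 3 libraries of genotype CLDN18+/+, written here as Cldn18 knockout and wild-type. Both were of a strain labelled with B6 and 129S5, and no treatment is labelled for either. The neck region had been cut by laser capture from unfixed frozen sections, so each library is bulk RNA of several cell types. The sample labels put the age at 7 weeks and the series design text at 7 days, and the files do not settle which holds. No label ties a library to its own animal or to pooled sections. The p-values therefore cover only the spread between samples, and that spread may be technical.

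Depth ran from 37673283 to 52842813 reads on genes per library, of which 38.6% to 45.4% lay on 1 row. Mitochondrial transcripts took 1.25% to 1.56% of reads in knockout libraries, against 3.28% to 4.28% in wild-type libraries. Cldn18 had 13035, 16798 and 15818 normalized counts in knockout libraries 1, 2 and 3, against 30498, 21210.1 and 23241 in wild-type libraries 1, 2 and 3 (log2 difference -0.71 ± 0.20 SE, limma adjusted p = 0.0134). It was thus lower but still read in the knockout, and no source used here names the deleted stretch. The neck marker genes Muc6, Tff2 and Gkn3 were read in all 6 libraries, and the list of 7 neck and surface mucous markers moved apart. Gkn3 rose (2.69 ± 0.25 on the log2 scale), Muc6, Gkn1 and Gkn2 fell (-1.71 ± 0.23, -1.62 ± 0.44 and -1.25 ± 0.47), and Tff2, Tff1 and Muc5ac were not called (SE; limma). All 8 parietal cell markers and all 5 chief cell markers measured were lower in the knockout, and all 12 proliferation markers were higher (limma). Fewer cells of a type and less RNA per cell cannot be told apart in such libraries.

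Proteasome genes were higher in the Cldn18 knockout more often than lower, by small amounts, and 14 of the 47 passed the test. Called genes had an adjusted p under 0.05 in limma, with Benjamini-Hochberg adjustment over all 17432 genes. Of the 47 proteasome genes 14 were called higher, 1 was called lower (Psme1) and 32 were not called. Over all genes tested, 23.3% were called higher and 21.5% lower, so the share called higher, 29.8%, lay near that of all genes. The log2 difference between the groups was positive for 37 of the 47, against 49.3% of all genes. Its median was 0.36, against -0.015 over all genes. Under quantile normalization the excess over the median of all genes was 0.12 in place of 0.38, and with 1 library left out the median was 0.23 (without wild-type library 3) to 0.43. All 3 knockout values lay above all 3 wild-type values for 20 of the 47 genes and below them for 2, against 28.1% of all genes lying wholly above and 27.1% wholly below (55.2% in either direction).

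**Figure D1:**
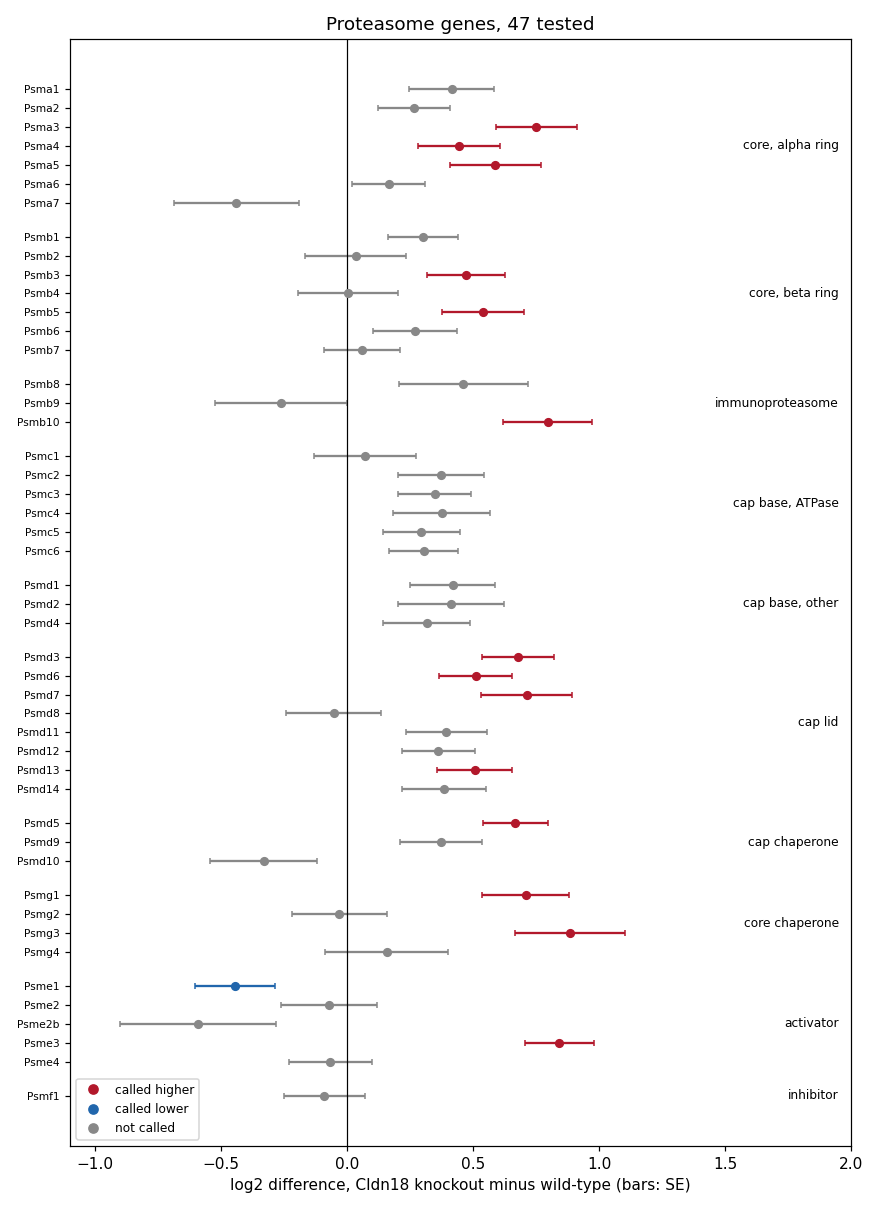
Log2 difference, Cldn18 knockout minus wild-type, of log2(normalized count + 1) for the 47 proteasome genes tested, with bars of 1 SE, ordered by role; red points were called higher, the blue point lower and grey points were not called. Most points lie right of 0, the highest being Psmg3 at 0.88 and Psme3 at 0.84, and Psmb9, Psma7, Psmd10, Psme1 and Psme2b lie furthest left.

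The number of calls depended on single libraries. Without wild-type library 2, 24 proteasome genes were called higher, 13 of them among the 14 above, against 24.1% of all genes higher in that fit. The number called higher was 8 without knockout library 1, 8 without knockout library 3 and 8 without wild-type library 3. Over all genes the number called higher also fell in each of these fits. It was lowest without knockout library 3, at 3095, beside 4053 with all 6 libraries. The authors' deposited table of their own comparison also called 8 higher, all among the 14, against 13.4% of its genes, and 0 lower, against 9.31%. On recovered reads edgeR called 20 higher, against 24.8% of all genes, and DESeq2 called 13, against 23.7%, which included 14 and 13 of the 14. With both wild-type libraries 2 and 3 left out 13 were called higher, against 20.2% of all genes. The genes called higher in every one of the 21 alternatives were Psme3, Psmd5, Psmg1, Psmd3, Psmd7 and Psmb10. The share of all genes that held in this way was not computed.

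Wild-type library 2 stood apart from the other wild-type libraries for core and cap genes. Its value was above that of wild-type library 1 for 24 of the 31 core and cap genes, with a median ratio of 1.29 and a range of 0.73 to 2.19. Over all genes tested that ratio had a median of 0.93 and library 2 was above library 1 for 42.7%. All 3 knockout values lay above wild-type libraries 1 and 3 for 27 of the 31. That count is favoured by leaving out the library that stood high in these same genes. The share of all genes for that count was not computed, so no excess can be read from it. With all 6 libraries the knockout lay wholly above for 6 of 14 core and 7 of 17 cap genes, against 28.1% of all genes. Relative to the wild-type mean, the median deviation of the 17 cap genes was 0.40, 0.26 and 0.46 in knockout libraries 1, 2 and 3, against -0.084, 0.33 and -0.20 in wild-type libraries 1, 2 and 3 on the log2 scale. For the 14 core genes it was 0.39, 0.17 and 0.34 in the knockout libraries, against 0.0099, 0.23 and -0.22 in the wild-type libraries. Wild-type library 2 was the highest of all 6 for 13 of the 47 proteasome genes, against 22.2% of all genes. On the cap median and on the core median wild-type library 2 thus lay between the knockout libraries, and wild-type libraries 1 and 3 lay below all of them. On the median of all 47 genes wild-type library 2 was at 0.23, below 0.39, 0.25 and 0.45 in knockout libraries 1, 2 and 3.

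**Figure D2:**
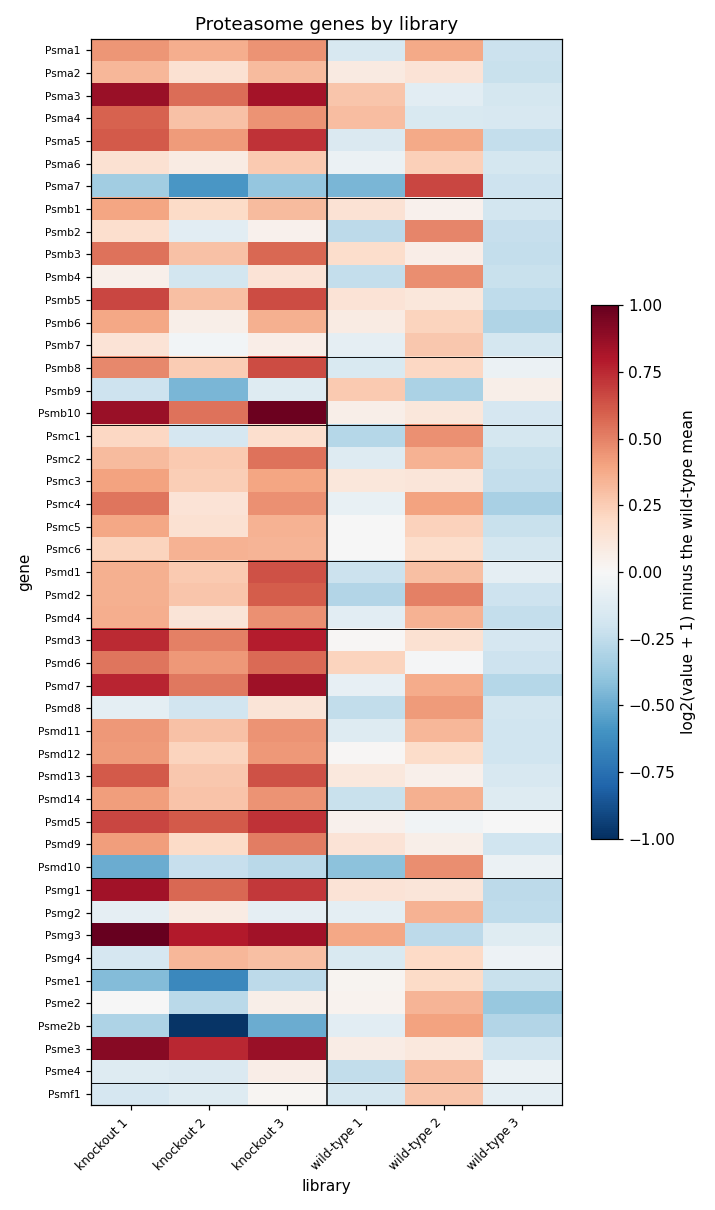
Each proteasome gene in each library as log2(normalized count + 1) minus the wild-type mean of the gene, with knockout libraries on the left, wild-type libraries on the right and colours limited to -1 and 1. The knockout columns and the column of wild-type library 2 are mostly red, while wild-type library 3 is mostly blue, with a cap median of -0.20.

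In the alpha ring of the core, which gates the entry of substrates, 3 of 7 genes rose in the knockout (Psma3, Psma4 and Psma5), beside 23.3% of all genes. Psma3 (ENSMUSG00000060073.9, chr12:70974621-70996347, plus strand) had 2952, 2391 and 2899 normalized counts in knockout libraries 1, 2 and 3, against 1973, 1515 and 1439 in wild-type libraries 1, 2 and 3. The groups did not overlap, and wild-type library 1 was the highest of its group. The log2 difference was 0.75 ± 0.16 (SE; limma adjusted p = 0.00336). Psma5 (ENSMUSG00000068749.9, chr3:108256926-108279974, plus strand) had 1692, 1489 and 1825 in the knockout, against 999, 1441 and 939.9 in wild-type, and wild-type library 2 reached close to the lowest knockout library (log2 difference 0.59 ± 0.18 SE, limma adjusted p = 0.0213). Its call was lost without knockout library 1 (limma adjusted p = 0.0728), knockout library 3 (0.0846) or wild-type library 3 (0.088). Psma4 had 3377, 2756 and 3075 in the knockout, against 2787, 2028 and 2013 in wild-type, so that knockout library 2 lay below wild-type library 1. Its log2 difference of 0.44 ± 0.16 (SE; limma adjusted p = 0.0457) was called in 8 of the 21 alternatives, and the limma adjusted p was 0.175, 0.0552 and 0.112 without knockout library 1, 2 or 3 and 0.105 and 0.146 without wild-type library 2 or 3.

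The other alpha genes were not called. Psma1, Psma2 and Psma6 had log2 differences of 0.41, 0.27 and 0.16. Without wild-type library 2 Psma1 was called higher (log2 difference 0.61, limma adjusted p = 0.00407). Psma7 was the one core gene with a negative difference (-0.44 ± 0.25 SE, limma adjusted p = 0.178). It had 4558, 3879 and 4433 normalized counts in the knockout, against 4223, 9233 and 5025 in wild-type. Wild-type library 2 held the highest value of the 6, and without it the difference was -0.11 (limma adjusted p = 0.614). Without wild-type library 1 it was -0.67, and the gene was then called lower (limma adjusted p = 0.0317).

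In the beta ring, 2 of 7 genes rose, beside 23.3% of all genes. Psmb5, the subunit that cuts after hydrophobic residues (ENSMUSG00000022193.7, chr14:54614119-54618022, minus strand), had 2672, 2073 and 2639 normalized counts in the knockout, against 1854, 1823 and 1409.9 in wild-type (log2 difference 0.54 ± 0.16 SE, limma adjusted p = 0.0196). Psmb3, a subunit without a cutting site, had 2359, 1978 and 2409 in the knockout, against 1830.0, 1688 and 1366 in wild-type (log2 difference 0.47 ± 0.15 SE, limma adjusted p = 0.0289). Neither gene overlapped between the groups, and in each of them wild-type library 3 was the lowest of the 6. Both calls were lost without knockout library 1 (limma adjusted p = 0.0916 for Psmb5 and 0.111 for Psmb3), without knockout library 3 (0.0789 and 0.106) and without wild-type library 3 (0.0766 and 0.103). The other cutting subunits were not called, with 4174, 3334 and 4089.7 for Psmb6 in the knockout against 3379.7, 3726 and 2585 in wild-type, and 4679, 4176 and 4465 for Psmb7 in the knockout against 3997, 5135 and 3768 in wild-type. Psmb1 had a log2 difference of 0.30, Psmb2 of 0.034 and Psmb4 of 0.0035, none of them called, though Psmb1 was called higher without wild-type library 1. The differences of Psmb2, Psmb4 and Psmb7 turned negative under quantile and upper quartile scaling. In the core as a whole 5 of 14 genes were called higher, beside 23.3% of all genes, and 13 had a positive difference, with a median of 0.28. That median was 0.14 under quantile normalization, 0.15 under upper quartile scaling and 0.18 without wild-type library 3.

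**Figure D3:**
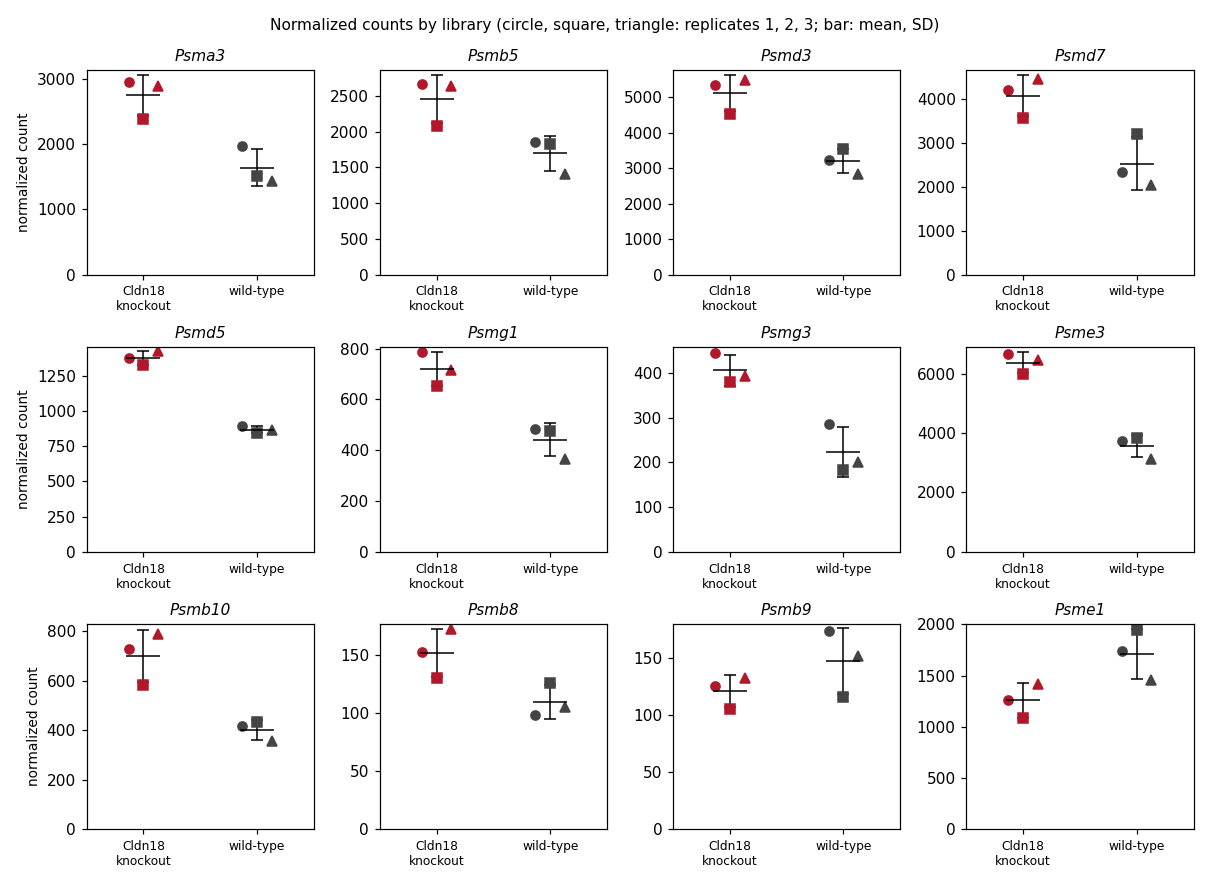
Normalized counts of 12 proteasome genes by library, with knockout on the left of each panel and wild-type on the right; circles, squares and triangles are replicates 1, 2 and 3, and bars give the mean and SD of 3 libraries. The groups are apart for Psmd5, at 1328 to 1426 in the knockout against 843 to 894 in wild-type, and overlap for Psmb9.

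In the cap, 4 genes of the lid rose, beside 23.3% of all genes, and 13 genes were not called. The base, whose ring of ATPases unfolds the substrate, gave 0 calls among 9 genes in limma. Over all genes 23.3% were called higher and 21.5% lower. An unadjusted p under 0.05 in limma was found for 2 of the 9, a share not computed over all genes. Of the 9, edgeR called 2 higher, beside 24.8% of all genes, and DESeq2 called 0, beside 23.7%. The 6 ATPase genes Psmc1 to Psmc6 had log2 differences of 0.070 to 0.37, with that of Psmc1 turning negative under quantile and upper quartile scaling, and the scaffold genes Psmd1 and Psmd2 and the ubiquitin receptor gene Psmd4 had 0.42, 0.41 and 0.32. Psmd2 had 7710.3, 7339.7 and 9193 normalized counts in the knockout, against 4924, 8548 and 5241 in wild-type, with wild-type library 2 above knockout libraries 1 and 2. Without wild-type library 2, 7 of the 9 base genes were called higher, beside 24.1% of all genes in that fit. Psmd2 (log2 difference 0.66, limma adjusted p = 0.00512) and Psmc2 (0.55, 0.011) were among the 7. Psmc3 was called higher without wild-type library 1. Whether the lid and the base differ in response was not tested.

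The lid holds the enzyme that takes ubiquitin off the substrate, Psmd14, and its partner Psmd7. Of its 8 genes 4 rose, beside 23.3% of all genes, namely Psmd3, Psmd6, Psmd7 and Psmd13. Psmd3 (ENSMUSG00000017221.14, chr11:98682554-98695979, plus strand) had 5337, 4529 and 5486 normalized counts in the knockout, against 3217, 3538 and 2844 in wild-type (log2 difference 0.68 ± 0.14 SE, limma adjusted p = 0.00322). Psmd7 (ENSMUSG00000039067.5, chr8:107580381-107588464, minus strand) had 4204, 3579 and 4472 in the knockout, against 2343, 3208 and 2037 in wild-type (log2 difference 0.71 ± 0.18 SE, limma adjusted p = 0.00821). For both genes the groups were apart, and wild-type library 2 was the wild-type library closest to the knockout. Psmd6 had 2510.3, 2342 and 2575 in the knockout, against 2021, 1725 and 1501 in wild-type, and Psmd13 had 3848, 3042 and 3905 in the knockout, against 2709, 2611 and 2258 in wild-type. Their log2 differences were 0.51 ± 0.14 and 0.51 ± 0.15 (SE; limma adjusted p = 0.015 and 0.0176), and the groups did not overlap for either. Both calls were lost without knockout library 1 (limma adjusted p = 0.0615 for Psmd6 and 0.0861 for Psmd13), knockout library 3 (0.0589 and 0.0779) or wild-type library 3 (0.0562 and 0.0659).

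The remaining lid genes were not called. Psmd14 had 2583, 2354 and 2645 normalized counts in the knockout, against 1661, 2472 and 1766 in wild-type (log2 difference 0.38 ± 0.17 SE, limma adjusted p = 0.0852). Wild-type library 2 fell among the knockout libraries, and without it the gene was called (log2 difference 0.56, limma adjusted p = 0.00765). Psmd11 and Psmd12 had log2 differences of 0.39 and 0.36 and were likewise called without that library (limma adjusted p = 0.00721 and 0.0281). Psmd8 had a difference of -0.054 ± 0.19 (SE), with its highest value in wild-type library 2. Over the whole cap 4 of 17 genes were called higher, a share of 23.5%, close to the 23.3% of all genes, while 16 had a positive difference and the median was 0.37. Under quantile normalization and upper quartile scaling that median was 0.23 and 0.24. Without wild-type library 2, 14 of the 17 were called higher, beside 24.1% of all genes in that fit. The number was 2 without knockout library 1, 2 without knockout library 3 and 2 without wild-type library 3. In each fit that gave 2, the number called higher over all genes also fell. It was lowest without knockout library 3, at 3095, beside 4053 with all 6 libraries.

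Many proteasome genes have processed pseudogenes, and some of these rows were high in the same wild-type library. Of the pseudogenes annotated in GENCODE vM21, 36 matched a proteasome gene best, over at least 150 bases at 85% identity or more, and 20 of them had a row in the table, of which 13 were highest in wild-type library 2. Their summed values were 205, 253 and 302 in knockout libraries 1, 2 and 3, against 364, 2992 and 1260 in wild-type libraries 1, 2 and 3. A few rows carried these sums, while others, such as Gm4950 and Gm6884, were at 0 in wild-type library 2. The pseudogene of Psmd2, Gm5422, is 96.4% identical to it over 2726 bases and had 22.7, 45.8 and 57.7 in the knockout, against 108, 1331 and 545 in wild-type. The 2 pseudogenes of Psma5 summed to 614 in wild-type library 2, 42.6% of the value of Psma5 itself there. Genes with such a row were called higher in 5 of 14 cases and those without one in 9 of 33, beside 23.3% of all genes. Whether these shares differ was not tested. The part of these reads in the values of the parent genes was not tested.

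**Figure D4:**
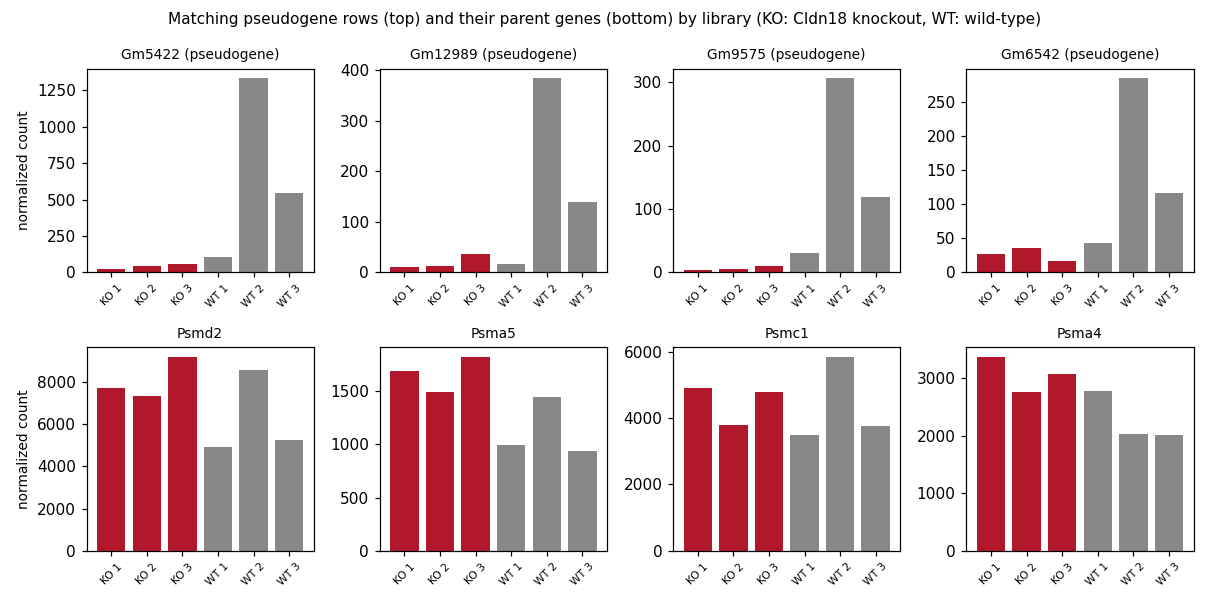
Normalized counts of 4 processed pseudogenes (top) and of their parent genes (bottom) in each library, knockout (KO) in red and wild-type (WT) in grey. The pseudogenes peak in wild-type library 2, Gm5422 at 1331, while Psmd2 and Psmc1 are also high there and Psma4 is not.

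Of the 3 immunoproteasome genes Psmb10 rose, and Psmb8 and Psmb9 were not called. Psmb10 (ENSMUSG00000031897.9, chr8:105935735-105938444, minus strand), which takes the place of Psmb7, had 728, 581 and 788 normalized counts in the knockout, against 415, 431 and 355 in wild-type (log2 difference 0.80 ± 0.18 SE, limma adjusted p = 0.00416). The groups were apart, and the call held in each of the 21 alternatives. Psmb8, which takes the place of Psmb5, had 152, 130.0 and 172 in the knockout, against 97.9, 126 and 105 in wild-type (log2 difference 0.46 ± 0.25 SE, limma adjusted p = 0.167). Its groups did not overlap either, though knockout library 2 and wild-type library 2 were close. Under quantile normalization Psmb8 was called higher (log2 difference 0.83, limma adjusted p = 0.0238). Psmb9, which takes the place of Psmb6, had 126, 106 and 133 in the knockout, against 174, 116 and 151 in wild-type, with wild-type library 2 inside the knockout range. It differed by -0.26 ± 0.26 on the log2 scale (SE; limma adjusted p = 0.446), a sign that turned positive, at 0.10, under quantile normalization.

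Per length the immunoproteasome genes were read far less than the constitutive cutting subunits. Lengths were those of all annotated exons merged, and the percentages depend on them. They were 3381, 3660 and 1705 bases for Psmb8, Psmb9 and Psmb10, and 899, 1872 and 3421 for Psmb5, Psmb6 and Psmb7. Mean knockout counts before that division were 151, 121 and 699 in the same order, against 2461, 3866 and 4440. Per kilobase of exon, the group mean of Psmb8 was 1.64% of that of Psmb5 in the knockout and 1.72% in wild-type. Psmb9 stood at 1.61% of Psmb6 in the knockout and 2.33% in wild-type. Psmb10 stood at 31.6% of Psmb7 in the knockout and 18.7% in wild-type. On the log2 scale the ratio of Psmb10 to Psmb7 was -2.68, -2.84 and -2.50 in knockout libraries, against -3.27, -3.57 and -3.40 in wild-type libraries, so that all knockout values lay higher. The difference of 0.74 had a two-sided exact permutation p of 0.1, the smallest that 3 against 3 libraries allow, and an adjusted p of 0.3 over the 3 ratios by the same exact test. The differences were -0.077 for Psmb8 over Psmb5 (exact permutation p = 0.7) and -0.53 for Psmb9 over Psmb6 (exact permutation p = 0.3). Psmb9 and Psmb8 lie 9956 bases apart on chromosome 17, and Psmb9 overlaps Tap1 on the opposite strand. No source used here says that strand was used in counting, and reads of the pair cannot then be told apart.

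**Figure D5:**
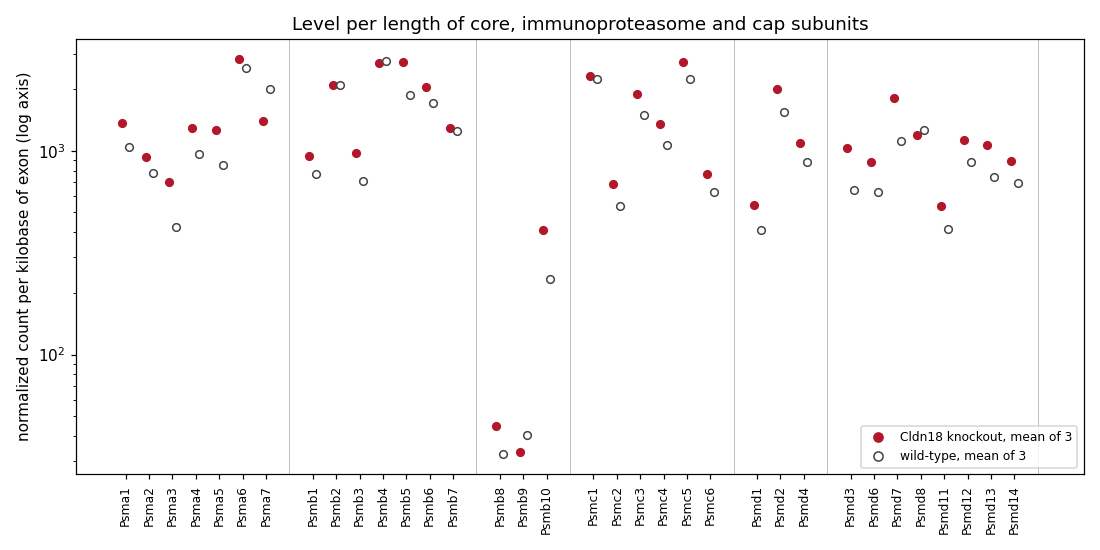
Mean normalized count per kilobase of exon (log axis) of core, immunoproteasome and cap genes, filled red points for the knockout and open points for wild-type, 3 libraries each. Psmb8 and Psmb9 lie lowest, at 33.1 to 44.8 in the knockout and 32.4 to 40.2 in wild-type, and core genes span 706 to 2833 in the knockout and 422 to 2760 in wild-type.

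Levels per length overlapped between core and cap genes. Core genes spanned 706 to 2833 normalized counts per kilobase of exon in the knockout (median 1331) and 422 to 2760 in wild-type (median 1150). Cap genes spanned 533 to 2743 in the knockout (median 1091) and 408 to 2259 in wild-type (median 879). Psma3 was the lowest core gene per kilobase in both groups, with 3894 bases of exon. By mean count Psma5 was lower, at 1669 in the knockout and 1127 in wild-type, against 2748 and 1642 for Psma3. Psma3 had the largest core difference, and Psmd7 had the largest in the cap, at a ratio of means of 1.62.

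Factors that build the particle were called in 3 of 7 cases, all higher, beside 23.3% of all genes called higher. Psmd5, which holds part of the ATPase ring until the base is joined (ENSMUSG00000026869.12, chr2:34849734-34874968, minus strand), had 1376, 1328 and 1426 normalized counts in the knockout, against 894, 843 and 862 in wild-type (log2 difference 0.67 ± 0.13 SE, limma adjusted p = 0.00194). Its libraries lay close within each group, with an SD of 49.4 in the knockout and 25.3 in wild-type counts (n = 3 each). Psmg1, which helps the alpha ring to close (ENSMUSG00000022913.16, chr16:95979933-95990960, minus strand), had 786, 655 and 717 in the knockout, against 484, 477 and 366 in wild-type (log2 difference 0.71 ± 0.17 SE, limma adjusted p = 0.00686). Psmg3, another chaperone of that ring (ENSMUSG00000029551.13, chr5:139823592-139826885, minus strand), had 445, 379.7 and 394 in the knockout, against 286, 183 and 201 in wild-type (log2 difference 0.88 ± 0.22 SE, limma adjusted p = 0.00702). None of the 3 genes overlapped between the groups, and Psmg3 was no longer called with both wild-type libraries 2 and 3 left out (limma adjusted p = 0.11). Their partners Psmg2 and Psmg4 had log2 differences of -0.031 and 0.16, and the base chaperones Psmd9 and Psmd10 had 0.37 and -0.33, none of them called. Psmd9 was called higher with TMM scaling, array weights and edgeR. Psmd10 was called lower without wild-type library 1 (-0.54, limma adjusted p = 0.0372), and its difference was -0.10 without wild-type library 2.

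The activators, which open the core without the cap, moved in both directions. Psme3, the nuclear activator (ENSMUSG00000078652.9, chr11:101316213-101323537, plus strand), had 6671, 5993 and 6464 normalized counts in the knockout, against 3737, 3828 and 3134 in wild-type. The groups were well apart, with the lowest knockout library at 5993 and the highest wild-type library at 3828. Its log2 difference of 0.84 ± 0.14 (SE; limma adjusted p = 0.000708) had the smallest p of all proteasome genes. Psme1, which pairs with Psme2 in the interferon-induced activator, was the one gene that fell (ENSMUSG00000022216.17, chr14:55578123-55581529, plus strand). It had 1261, 1088 and 1422 in the knockout, against 1737, 1947 and 1457 in wild-type (log2 difference -0.44 ± 0.16 SE, limma adjusted p = 0.0432). All 3 knockout values lay below all 3 wild-type values, with knockout library 3 and wild-type library 3 close together. The call was lost without knockout library 1 (limma adjusted p = 0.111), knockout library 2 (0.157), wild-type library 1 (0.0654) or wild-type library 2 (0.115). Psme1 overlaps Emc9 on the opposite strand.

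The partner of Psme1, Psme2, lies 5911 bases from it on chromosome 14 and was not called. It had 1269, 1054 and 1324 normalized counts in the knockout, against 1301, 1614 and 979.7 in wild-type (log2 difference -0.072 ± 0.19 SE, limma adjusted p = 0.787). Its copy Psme2b is 99.4% identical over 794 bases, so the reads of these genes are uncertain. Psme2b had 104, 65.0 and 91.3 in the knockout, against 120.0, 170.4 and 105 in wild-type, and was not called (limma adjusted p = 0.146). Psme4, an activator of the nucleus, and Psmf1, an inhibitor of the core, had log2 differences of -0.067 and -0.092, neither called.

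Factors that work with the proteasome but carry other names moved both ways. Of 23 measured, 9 were called higher and 2 lower, with a median log2 difference of 0.27. The share called higher was 39.1%, against 23.3% of all genes, and the share called in either direction 47.8%, against 44.7%. The core chaperone gene Pomp had 3009.9, 2424 and 2990.1 normalized counts in the knockout, against 2220.5, 1949.9 and 1818 in wild-type (log2 difference 0.49 ± 0.15 SE). Adrm1, a ubiquitin receptor of the cap, rose by 0.72 ± 0.16 on the log2 scale (SE; limma adjusted p = 0.00419). Usp14, a ubiquitin protease bound to the cap, had a difference of 0.43 ± 0.14. The shuttle genes Rad23b and Ubqln1, which bring tagged proteins to the cap, rose by 0.58 and 0.55 on the log2 scale. The lower ones were AI314180 (-0.71 ± 0.20) and Fbxo7 (-1.01 ± 0.20), the second named after its value was seen. Of 6 genes for ubiquitin and its activating enzymes 3 were higher and 1 lower, beside 23.3% and 21.5% of all genes. Rps27a stood at 0.55 ± 0.18, Uba6 at 0.63 ± 0.17 and Ubb at -0.44 ± 0.16.

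NFE2L1 is the factor that raises proteasome genes when proteasome activity falls short, through antioxidant response elements that it shares with NFE2L2. Neither gene was called. Nfe2l1 had 6222, 5591 and 6709 normalized counts in the knockout, against 8029, 7557 and 5878 in wild-type (log2 difference -0.20 ± 0.16 SE, limma adjusted p = 0.329). Nfe2l2 had 13816, 14071 and 14599.8 in the knockout, against 15061, 9317 and 10392 in wild-type (0.32 ± 0.19 SE, limma adjusted p = 0.204). Of the 10 genes of this regulator list 3 were higher and 1 lower, beside 23.3% higher and 21.5% lower over all genes. The partner genes Mafg and Mafk rose by 0.89 and 0.80, and Bach1, which opposes NFE2L2, fell by 0.84 on the log2 scale. NFE2L2 targets outside the proteasome gave 12 higher and 1 lower of 16, beside the same 23.3% and 21.5% of all genes. The median of these targets was 0.95, beside 0.36 for the proteasome genes. Pgd, Tkt and Prdx1 among them rose by 1.32, 0.97 and 0.46. The lower one was Nqo1, a quinone reductase (-1.01 ± 0.21 SE), named after its value was seen. Heat shock chaperones were called higher in 9 of 12 cases, beside the same 23.3%, with a median of 1.52, with Hspa8 at 1.86 ± 0.25, Hsp90aa1 at 1.66 ± 0.21 and Hsp90ab1 at 0.79 ± 0.24.

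Promoters were searched for the letters of that element, TGACNNNGC on either strand, in RefSeq windows of GRCm38.p6 (the mm10 build) that run from 250 bases before to 50 after each start. Of 44 promoters of 41 proteasome genes 6 held it, 13.6%, against 12.4% of 32851 promoters. They belonged to Psmb5, Psmb6, Psmc6, Psmd12, Psmd9 and Psme4, of which Psmb5 was called higher. The stretches of the 5 listed first are shown, whose match begins at base -9 or further before the start. That of Psme4, not called, begins at -7 and is not shown. The matching letters are in capitals and the strand of the gene is the reading strand. Psmb5 lies at chr14:54618004-54618072 (minus strand), Psmb6 at chr11:70525318-70525356 (plus strand), Psmc6 at chr14:45329574-45329635 (plus strand), Psmd12 at chr11:107479278-107479319 (plus strand) and Psmd9 at chr5:123228129-123228189 (plus strand).
Psmb5: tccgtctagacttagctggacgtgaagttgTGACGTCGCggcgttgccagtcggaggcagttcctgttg
Psmb6: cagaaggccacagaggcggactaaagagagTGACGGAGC
Psmc6: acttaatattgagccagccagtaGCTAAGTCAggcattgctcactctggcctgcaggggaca
Psmd12: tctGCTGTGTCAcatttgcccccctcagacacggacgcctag
Psmd9: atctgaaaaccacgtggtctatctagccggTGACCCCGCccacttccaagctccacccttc
The match began at base -47 from the start in Psmb5, at -9 in Psmb6 and at -31 in Psmd9, near the start of transcription, and at -227 in Psmc6 and -247 in Psmd12. In Psmc6 and Psmd12 it lay on the opposite strand. Matches of the 3 other patterns searched did not overlap these. The interferon-stimulated response element, GAAA and a further GAAA after 2 free bases, was held by 5 member promoters, 11.4%, against 3.44% of all, namely those of Psmb3, Psmd4, Psmd9, Psme1 and Psmg4. Of these Psmb3 was called higher and Psme1 lower. The gamma-activated site TTCNNNGAA was held by 3 (6.82%, against 8.3% of all), those of Psmb8, Psmd2 and Psmg1, and the CCAAT box by 14 (31.8%, against 37.4%).

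Genes of class I display and of interferon response were called in both directions, more often higher. Of 16 class I genes 7 were called higher and 1 lower. The share called higher was 43.75%, against 23.3% of all genes, and the share called in either direction 50%, against 44.7%. The heavy chain genes H2-K1 and H2-D1, named after their values were seen, rose by 1.01 and 1.02 on the log2 scale. H2-Q4, H2-Q7 and H2-M3 were not called. The peptide transporter gene Tap1 had 276, 264 and 194 normalized counts in the knockout, against 198, 342 and 269.9 in wild-type, and was not called (log2 difference -0.12 ± 0.25 SE). B2m, the light chain of class I molecules, was the lower one, at 3018, 3022 and 3426 in the knockout against 5186, 4052 and 4222 in wild-type (-0.50 ± 0.14 SE). The peptide loading chaperone genes Calr, Pdia3 and Canx rose by 0.91, 0.79 and 0.51 on the log2 scale. Of 28 interferon genes tested of 29 listed, 11 were higher and 1 lower (Rsad2, named after its value was seen). The share called higher was 39.3%, against 23.3% of all genes, and the share called in either direction 42.9%, against 44.7%. Irf1, a transcription factor of the interferon response, had 537, 492 and 868 in the knockout, against 367, 429.7 and 366 in wild-type (0.66 ± 0.22 SE), with no overlap between the groups. The receptor genes Ifngr1 and Ifngr2 rose by 0.87 and 0.83. Ifng itself was at 0, 2.96 and 0 in the knockout, against 0, 0 and 12.6 in wild-type, too low to test.

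Immune cells express immunoproteasome genes at a high level. Some leukocyte markers rose in the knockout and so did Psmb10, while Psmb8 and Psmb9 were not called. The table held 19 of these markers, and 13 were tested, of which 7 were called higher, beside 23.3% of all genes. Coro1a, Cd3g, Cd4, Csf1r, Cd68 and Itgam were tested and not called, Itgam with a negative log2 difference of -0.56. The summed values of all 19 leukocyte markers were 4266 to 7792 in the knockout, against 2306 to 3095 in wild-type. Ptprc, the pan-leukocyte gene, had 356, 272 and 361 normalized counts in the knockout, against 175, 147 and 137 in wild-type (log2 difference 1.10 ± 0.22 SE, limma adjusted p = 0.00221). Lyz2 and Laptm5 rose by 1.80 and 1.29 on the log2 scale. The T, B and NK cell genes Cd3e, Cd8a, Cd79a, Cd79b, Ms4a1 and Nkg7 were too low to test, and Adgre1 was not analysed here. Parietal cell markers summed to 2834 to 9359 in the knockout, against 398783 to 518408 in wild-type. Chief cell markers summed to 34034 to 67505 in the knockout, against 1807125 to 3002981 in wild-type. Proliferation markers summed to 44714 to 57146 in the knockout, against 15818 to 17847 in wild-type. The part of these marker changes in the differences of the proteasome genes was not tested.

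Other genes of the annotation overlap 18 of the 49 proteasome genes on the opposite strand, among them Psmd5 (Cutal), Psmd13 (Sirt3), Psma4 (AY074887) and Psmb10 (Gm16156). Reads from such pairs cannot be told apart without strand. The rows named Psmb5-ps, Psmb6-ps and Psmb7-ps2, which the rule leaves out, held values of 0 to 7.69, and adding them changed no count of calls. Psmc3ip, outside the proteasome, had 199, 177 and 126 normalized counts in the knockout, against 71.0, 44.5 and 65.1 in wild-type (log2 difference 1.46 ± 0.31 SE, limma adjusted p = 0.00335), with the groups apart. With it the count of symbols called higher would be 15 of 48.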

How the data were processed

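RNA of laser-captured neck mucosa was sequenced in 3 Cldn18 knockout and 3 wild-type libraries, grouped by the genotype labels. STAR, featureCounts, DESeq and the mm10 build are named by the authors, per the submitters' processing notes, with no role or version. The authors deposited 38720 rows of normalized counts (a signal with no values below 0) and a table of their own comparison with a fold change (a ratio), p-values and adjusted p-values. In each library the deposited values were whole multiples of the worth of 1 read, within 0.05 reads for 100% of values. These recovered reads numbered 37673283 to 52842813 per library and were used for edgeR and DESeq2.

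The test was limma 3.58.1 (R 4.3.3, eBayes with a mean trend), two-sided, on log2(normalized count + 1), over 17432 genes whose value reached 10 in 3 or more of the 6 libraries, with Benjamini-Hochberg adjustment. This scale understates the change of low genes. Genes that passed on 1 group alone are included in the counts. On the recovered reads edgeR 4.0.16 called 4323 genes higher and 3724 lower, beside 4053 and 3743 by limma, and DESeq2 1.42.0 called 3895 and 4012. Ratios of subunits had an exact permutation test over libraries. Tested on simulated data, the procedure missed most small changes and made more false calls than its threshold allows.

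Members follow from their symbols. Members and gene lists were chosen with earlier results of these data known. Text names all members, Cldn18, a fixed set (Nfe2l1, Nfe2l2, Pomp, Adrm1, Usp14, Irf1, Tap1, B2m, Ptprc; another gene of it is not reported here) and up to 3 called genes of the highest mean per list. Coordinates and exon lengths are of GENCODE vM21 in mm10. Pseudogenes were matched with blastn 2.17.0 (at least 150 bases, 85% identity). RefSeq promoters were found for 41 of 49 members. Further promoter patterns were looked at first and not kept. Alternatives changed the pseudocount, filter, scaling, variance model, test and libraries used.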

Additional observations from a re-analysis of the deposited data

How the results depend on the processing

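Of the 15 called proteasome genes, 6 were called in all 21 alternatives and none changed sign. Of the 32 uncalled ones, 19 were called in at least 1. The shares of all genes for these counts were not computed. The alternatives draw on the same 6 libraries and are not independent. The count called higher, 14, was 22 with TMM scaling, 30 with array weights, 8 without a mean trend and 8 in the authors' deposited table, and 8 to 24 with 1 library left out. Over all genes the count called higher, 4053, also rose with TMM scaling and array weights and fell without a mean trend. With 1 library left out it was 3095 to 4369. The count called lower, 1, was 0 with no filter on low values, without a mean trend, with array weights, in the authors' deposited table and without wild-type libraries 2 and 3, and 0 to 2 with 1 library left out. Core genes called higher, 5, numbered 9 with array weights, 1 without a mean trend, 1 in the authors' deposited table, 2 without wild-type libraries 2 and 3 and 1 to 6 with 1 library left out; core genes called lower numbered 0 to 1 there. Cap genes called higher, 4, numbered 9 with TMM scaling, 15 with array weights, 8 with edgeR, 2 without a mean trend, 2 in the authors' deposited table, 7 without wild-type libraries 2 and 3 and 2 to 14 with 1 library left out. The fit without wild-type libraries 2 and 3 assumes that the single library left varies like the knockout libraries. Quantile normalization gave 2 immunoproteasome genes called higher and a median of 0.77 for the class. Over all genes, the authors' deposited table called 2025 lower. Except where libraries are left out, the cause was not tested.

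The median of all genes was -0.15 under upper quartile scaling and 0.10 under quantile normalization. Relative to it, the median of the 47 proteasome genes was 0.38 and 0.12, and 37 and 33 of the 47 differences lay above it. Without that shift, 33 and 34 of the 47 differences were above 0.

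Signs turned for 12 genes, none of them called where they did. Under quantile normalization the log2 differences were -0.11 for Psmb2, -0.16 for Psmb4, -0.098 for Psmb7, -0.090 for Psmc1 and 0.10 for Psmb9. Under upper quartile scaling they were -0.10 for Psmb2, -0.13 for Psmb4, -0.080 for Psmb7 and -0.068 for Psmc1. DESeq2 gave -0.035 for Psmb2 and -0.060 for Psmb4, and the authors' deposited table gave -0.0054 and -0.029 for these genes. Array weights gave 0.078 for Psme2 and 0.037 for Psmg2. Without wild-type libraries 2 and 3 the values were 0.18 for Psme4, 0.076 for Psmd10, 0.065 for Psmg2, 0.19 for Psmd8, 0.019 for Psma7 and 0.084 for Psmf1. With 1 library left out the ranges were -0.097 to 0.28 for Psmb2, -0.12 to 0.24 for Psmb4, -0.030 to 0.19 for Psmb7, -0.071 to 0.30 for Psmc1, -0.18 to 0.16 for Psmd8, -0.26 to 0.10 for Psme2, -0.19 to 0.088 for Psme4, -0.18 to 0.047 for Psmf1, -0.16 to 0.14 for Psmg2 and -0.22 to 0.022 for the ratio of Psmb8 to Psmb5.

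The replicate numbers were not seen to pair the samples: the deviations of same-numbered libraries had correlations of -0.0037, 0.021 and -0.17, and a library's own number was never its best partner. Under the replicate block 13 proteasome genes were called higher and 0 lower, and over all genes 3726 higher and 3626 lower.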
